A study of Mus musculus with 9 samples.

Results

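The respiratory chain was followed through the steps from EpiLC to anterior and posterior epiblast-like cells by its subunit genes, those in the nucleus and those in mitochondrial DNA. The members were every count row whose symbol begins Nduf with a, b, c, s or v and a number, Sdha to Sdhd, Uqcr, Cox4 to Cox8, Atp5, or mt-Nd, mt-Co, mt-Cytb or mt-Atp. The pattern matched 104 of 23453 rows, and 6 rows with -ps in the symbol were left out. The 98 members comprised 85 nuclear genes (38 of complex I, 4 of complex II, 8 of complex III, 18 of complex IV and 17 of complex V) and 13 mitochondrially encoded genes (7, 0, 1, 3 and 2). Complexes were assigned from the symbol alone, so that Ndufa4, now known as a subunit of cytochrome c oxidase, was counted with complex I. The pattern leaves out the subunit genes Cyc1 of complex III and Ndufab1 of complex I, which are in the list of electron carriers below.

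RNA was sequenced from 9 libraries of mouse cells, 3 in each of 3 groups. EpiLCs (epiblast-like cells) were made by keeping naive embryonic stem cells for 48 h in N2B27 with 1% KSR, FGF2 and ActivinA. aEpiLCs, modelled on anterior epiblast, were EpiLCs kept for another 24 h in basal N2B27, and pEpiLCs, modelled on posterior epiblast, were EpiLCs kept for another 24 h with the GSK3 inhibitor CHIR99021, which activates Wnt signalling, and Activin. According to the methods the medium of both later states also held 1% KSR, so KSR was common to all groups. No EpiLCs kept for another 24 h in their own medium were analysed here, so elapsed time and change of medium cannot be told apart in either comparison with EpiLC. The 3 groups are cultures that share their origin from naive stem cells, all are bulk RNA, and the labels do not say whether replicates came from separate cultures, so that p-values measure only the spread between these libraries, which may be technical. The libraries held 20560564 to 23417917 counts. The epiblast gene Pou5f1 was at 792 CPM or more in all 9 libraries (CPM are counts scaled to a common library size). Of 5 further epiblast markers, Dnmt3b (747 to 1608 CPM), Pou3f1 (10.5 to 44.3 CPM), Utf1 (27.2 to 104 CPM) and Otx2 (65.1 to 76.8 CPM) lay lower in the pEpiLC libraries than in all others, and Fgf5 (161 to 180 CPM) higher. The summed level of the 6 markers was 1810, 3088 and 2804 CPM in pEpiLC and 4122 to 4750 CPM in the other 6 libraries. T, which marks the primitive streak, was at 206, 222 and 1093 CPM in the pEpiLC libraries and at 1.22 CPM or less in the other 6. pEpiLC replicate 1, the highest of these, also stood apart in endoderm genes: its summed level of 6 extraembryonic endoderm markers was 65.3 CPM, against 1.67 to 3.52 CPM in the other 8 libraries. Gata6 (46.7 CPM), Gata4 (12.4 CPM) and Sox17 (4.69 CPM) made up most of that sum, while Sox7 was at 0, Amn at 0.814 and Cubn at 0.623 CPM, within their range in the other libraries. The difference was not limited to markers. pEpiLC replicate 1 differed over 4-fold from pEpiLC replicates 2 and 3 at 321 and 326 genes. All other pairs of replicates within a group differed so at 57 to 75 genes. The part of these differences in the results below was not tested, and counts of calls by complex and list are also given without this library where it moves them by over 1.5 times.

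Complexes I to IV pass electrons from NADH and succinate to oxygen in the inner mitochondrial membrane, complexes I, III and IV pump protons as they do so, and complex V, the ATP synthase, uses the proton gradient to make ATP. Mitochondrial DNA encodes a few membrane subunits of every complex except complex II, and all other subunits are made from nuclear genes and imported. The mitochondrial genes are transcribed as long precursors from both strands by a polymerase of their own, with mt-Nd6 alone among the protein genes read from the light strand. Naive embryonic stem cells respire, and primed pluripotent cells are known to lean on glycolysis.

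Stretches of the mouse nuclear genome were copied from mitochondrial DNA, and their sequences bear on the values of the mitochondrial genes they match, because a read from an identical stretch can be assigned to either place. Of the 13 mitochondrially encoded rows, 7 had at least 1 nuclear row in the count table that shared 5% or more of their 50-base words. Most of these are unprocessed pseudogenes that follow each other on the minus strand of chromosome 1 (GRCm38, 24611535 to 24616197). The 3 pairs printed here show a copy without a difference, a copy with 1 difference and a copy with many, from the transcripts of GENCODE vM21, each 80 bases 5′ to 3′, with capitals where the members of a pair differ. mt-Co2, whose only exon lies at chrM:7013-7696, was identical to Gm28661 over all 681 bases of the copy, of which the beginning (chrM:7013-7092, plus strand, and chr1:24615486-24615565, minus strand) reads as follows.
mt-Co2: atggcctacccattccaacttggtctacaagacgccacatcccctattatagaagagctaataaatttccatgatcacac
Gm28661: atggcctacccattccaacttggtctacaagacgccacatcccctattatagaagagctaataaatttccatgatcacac
mt-Nd3 and Gm28438 differed only by T3C (mitochondrial base, position from the start of the mitochondrial gene, base of the copy) in 345 bases, within the stretches chrM:9459-9538 and chr1:24613040-24613119.
mt-Nd3: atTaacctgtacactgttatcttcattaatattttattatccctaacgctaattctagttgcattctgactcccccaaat
Gm28438: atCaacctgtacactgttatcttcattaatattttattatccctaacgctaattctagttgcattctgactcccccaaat
mt-Co1 and Gm13340, on chromosome 2, differed at 37 of 1545 bases. The stretches with most differences, chrM:5782-5861 and chr2:22589114-22589193, hold A462G, A468G, T501C, C519T and G534A.
mt-Co1: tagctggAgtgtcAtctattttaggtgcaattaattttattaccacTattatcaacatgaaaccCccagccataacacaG
Gm13340: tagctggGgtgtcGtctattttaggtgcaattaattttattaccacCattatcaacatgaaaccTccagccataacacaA
The levels of the copies differed widely. Gm28661 held 2547 to 4065 CPM in the 9 libraries while mt-Co2 itself held 78.0 to 243 CPM. Gm28438 held 123 to 269 CPM beside 41.4 to 95.6 CPM in mt-Nd3, and Gm13340 held 0.139 CPM or less beside 7747 CPM or more in mt-Co1. The copies of mt-Atp6 (Gm10925), mt-Co3 (Gm28437) and mt-Nd4l (Gm10222) were likewise free of any difference over 678, 783 and 294 bases, and held 1936 to 2461, 2024 to 3771 and 180 to 294 CPM. Gm29216, which matches the last part of mt-Co1 at 486 of 492 bases, held 324 to 527 CPM. Gm28439 matched mt-Nd4 at all 876 bases of the copy and held 0.322 CPM or less. For the pairs without a difference the counts do not say which copy was transcribed, so tests of these genes were also run on the row with its copies added, an alternative chosen after seeing the data. Values below are for the row unless the copies are named.

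In levels of the gene's own row per kb of transcript the highest members of complexes I, III, IV and V were mitochondrially encoded. mt-Co1, a catalytic subunit of cytochrome c oxidase, had a mean level of 5926 CPM per kb over the 9 libraries, mt-Cytb of complex III 2658, mt-Nd1 and mt-Nd4 of complex I 2301 and 1398, and mt-Atp8 of the ATP synthase 1095 CPM per kb. Atp5b, the catalytic beta subunit of the ATP synthase, was the highest nuclear member at 923 CPM per kb, followed by Atp5a1, its alpha subunit, at 494 and Cox4i1 of complex IV at 388. In complex III the highest nuclear member was Uqcr10 at 197 CPM per kb, and in complex II, which has only nuclear subunits, Sdha and Sdhd were at 87.7 and 79.5 CPM per kb. The median was 69.3 CPM per kb over the 82 nuclear members with a transcript length and 1010 over the 13 mitochondrially encoded ones. With their copies added mt-Co1, mt-Co2, mt-Co3 and mt-Atp6 were at 6221, 5182, 3935 and 3527 CPM per kb, so that mt-Atp6 in place of mt-Atp8 was then the highest of complex V, and mt-Co2, mt-Co3 and mt-Atp6 exceeded mt-Cytb. The levels depend on the transcript chosen for the length, here the longest protein-coding one.

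The 13 mitochondrially encoded rows together took a larger share of all counts in both later states. The share was 1.60%, 1.68% and 1.53% in the EpiLC libraries, 2.27%, 2.13% and 2.12% in aEpiLC, and 2.41%, 2.19% and 2.39% in pEpiLC. No aEpiLC or pEpiLC library overlapped the EpiLC libraries, and aEpiLC and pEpiLC overlapped each other. The means were 1.60% ± 0.0774, 2.17% ± 0.0877 and 2.33% ± 0.124 (SD, n = 3), so that the aEpiLC mean was 1.36 times and the pEpiLC mean 1.45 times that of EpiLC. With the copies added the shares were 2.36% ± 0.121, 3.18% ± 0.0928 and 3.41% ± 0.147, and the ratios to EpiLC 1.35 and 1.44. The 85 nuclear members together held 1.08% ± 0.0115 of counts in EpiLC, 1.00% ± 0.0490 in aEpiLC and 1.08% ± 0.0383 in pEpiLC. The aEpiLC libraries (0.962% to 1.06%) lay below the EpiLC libraries (1.07% to 1.09%), and the pEpiLC libraries (1.04% to 1.11%) overlapped both. For every nuclear member count there were 1.42 to 1.54 mitochondrially encoded counts in the EpiLC libraries, 2.00 to 2.36 in aEpiLC and 2.00 to 2.33 in pEpiLC. In bulk RNA a change in the number of mitochondria or cells of a kind and a change of RNA per cell cannot be told apart.

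**Figure D1:**
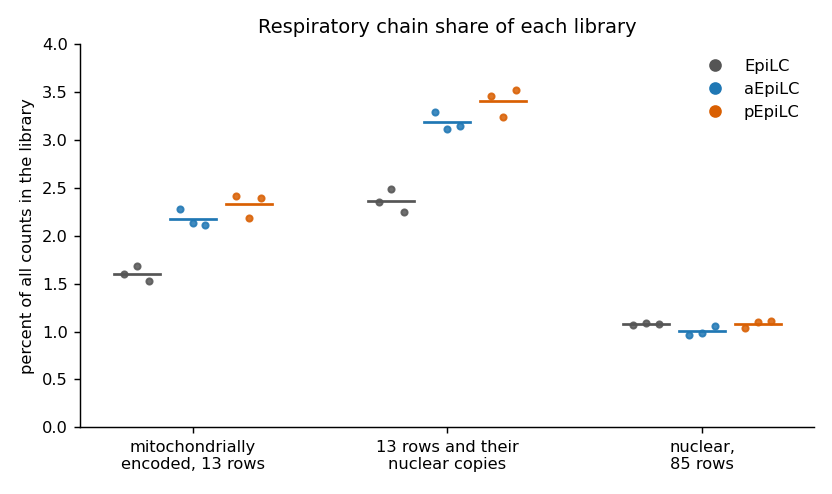
Percent of all counts in each library (points, 3 per group) with the group mean (bar), for the 13 mitochondrially encoded rows, for these rows with their nuclear copies, and for the 85 nuclear members. The EpiLC libraries sit at 1.53 to 1.68% for the mitochondrially encoded rows, below all aEpiLC and pEpiLC libraries (2.12 to 2.41%), while the nuclear members lie between 0.962 and 1.11% in all groups.

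In summed share the rise was largest for complex I. Its 7 mitochondrially encoded rows took 0.512% ± 0.0327 of all counts in EpiLC, 0.833% ± 0.0509 in aEpiLC and 0.892% ± 0.0481 in pEpiLC, 1.63 and 1.74 times the EpiLC mean. mt-Cytb rose 1.31 and 1.49 times in share, the 3 subunits of complex IV 1.20 and 1.26 times and the pair of complex V 1.17 and 1.39 times. These shares are of the rows without copies. In EpiLC the mt-Co2, mt-Co3 and mt-Atp6 rows held 174, 106 and 117 CPM on average, beside 2852, 2339 and 2102 CPM with their copies. The values and the order of complexes IV and V therefore depend on how shared reads were divided. The 38 nuclear complex I members held 0.230% ± 0.00483, 0.230% ± 0.0145 and 0.242% ± 0.0114 in the same groups. The differences between complexes were not tested.

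Against EpiLC, aEpiLC showed 10 of the 13 mitochondrially encoded rows higher and 1 lower (edgeR quasi-likelihood test, Benjamini-Hochberg adjusted p below 0.05 over 15301 genes), with a median log2 fold change of 0.57. Of all genes tested, 24% were higher and 22.6% lower at the same limit, with a median of 0.00. In pEpiLC 11 of 13 were higher and 0 lower against EpiLC, with a median of 0.70, beside 22.8% higher and 21.4% lower of 15288 genes and a median of 0.02. Both comparisons use the same EpiLC libraries. Between pEpiLC and aEpiLC 0 of 13 rows passed in either direction, where 6.28% of 15198 genes were higher in pEpiLC and 9.3% lower. At an unadjusted p below 0.05 there were 1 higher and 1 lower, DESeq2 called 0 in either direction, and the median log2 difference of the rows was 0.10. In pEpiLC against EpiLC 1 row, mt-Co2, was lower at an unadjusted p below 0.05 and 0 by DESeq2. The 11 higher in pEpiLC became 7 without EpiLC replicate 1, when mt-Atp6, mt-Atp8, mt-Nd3 and mt-Nd4l no longer passed and 16.2% of all genes were higher. Without pEpiLC replicate 1 the count was 11 and the median 0.71, and DESeq2 called 11. In aEpiLC DESeq2 called 7 higher and 0 lower. The shares of all genes under DESeq2 or at an unadjusted p were not counted. Calls that also required a 2-fold change were made for 12.5%, 15.8% and 7.29% of all genes in the 3 comparisons, and for 1, 0 and 0 of the mitochondrially encoded rows.

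The 6 rows without a copy row at this limit were mt-Nd1, mt-Nd2, mt-Nd5, mt-Nd6, mt-Cytb and mt-Atp8. Of these, mt-Nd2 and mt-Nd5 share 8.2% and 7.6% of their 50-base words with nuclear genes that have no row in the count table, and the other 4 share none. In aEpiLC 5 of the 6 were higher, and in pEpiLC all 6. mt-Nd6, the light-strand gene (chrM:13552-14070, minus strand), was at 153, 154 and 134 CPM in the EpiLC libraries, at 301, 275 and 298 CPM in aEpiLC and at 272, 290 and 306 CPM in pEpiLC. All later libraries lay above all EpiLC libraries, with a log2 fold change of 0.97 (SE 0.07) in both comparisons (edgeR adjusted p = 1.34e-07 for aEpiLC and 0.000137 for pEpiLC), the largest change among these 6 rows. Strandedness of the libraries is not given, so reads of the opposite strand at mt-Nd6 cannot be told apart from its own. The row does not show which strand rose. mt-Nd5, a proton-pumping subunit of complex I, was at 1251, 1222 and 1074 CPM in EpiLC, at 2261, 2109 and 1921 CPM in aEpiLC and at 2209, 2195 and 2346 CPM in pEpiLC. Its log2 fold changes were 0.81 (SE 0.07) and 0.92 (SE 0.07). mt-Nd1 and mt-Nd2, of the same membrane arm, rose by 0.63 and 0.57 on the log2 scale in aEpiLC and by 0.76 each in pEpiLC. mt-Cytb, the only mitochondrially encoded subunit of complex III, rose by 0.34 (SE 0.06) and 0.55 (SE 0.06). mt-Atp8, a small subunit of the ATP synthase, had a log2 fold change of 0.17 in aEpiLC (edgeR adjusted p = 0.0637) and rose by 0.26 in pEpiLC (edgeR adjusted p = 0.0311). The pEpiLC call was lost without any 1 of the EpiLC libraries, and the aEpiLC value passed without aEpiLC replicate 1 (0.23, edgeR adjusted p = 0.0164) and with library totals alone (edgeR adjusted p = 0.0148).

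In the 7 rows with a copy, adding the copies changed the picture for single genes. mt-Co2, the subunit of cytochrome c oxidase that takes electrons from cytochrome c, was at 159, 243 and 121 CPM in the EpiLC row, 107, 148 and 117 CPM in aEpiLC and 78.0, 80.9 and 145 CPM in pEpiLC. The groups overlapped, and the row was the 1 called lower in aEpiLC, at -0.51 on the log2 scale (edgeR adjusted p = 0.0404), a call lost without aEpiLC replicate 1 or 3 or EpiLC replicate 1 or 2. In pEpiLC its log2 fold change of -0.79 did not pass (edgeR adjusted p = 0.0714) but passed without pEpiLC replicate 1 or 3. With Gm28661 and Gm13341 added, mt-Co2 was at 2848, 3039 and 2668 CPM in EpiLC, 3681, 3622 and 3779 CPM in aEpiLC and 4123, 3929 and 4210 CPM in pEpiLC. The 3 groups then did not overlap, and the sum was higher by 0.36 (SE 0.06) in aEpiLC and 0.52 (SE 0.06) in pEpiLC (edgeR adjusted p = 0.000351 and 0.000863). mt-Co3, another core subunit of complex IV, had the largest row change of the 13, 1.39 on the log2 scale in aEpiLC, from 156, 33.7 and 127 CPM in EpiLC to 405, 216 and 220 CPM, and was at 198, 134 and 63.5 CPM in pEpiLC. DESeq2 did not call it in aEpiLC (DESeq2 adjusted p = 0.0811), and without pEpiLC replicate 1 the row was lower in pEpiLC than in aEpiLC, by -1.52 (edgeR adjusted p = 0.00466). In pEpiLC against EpiLC the row had a log2 fold change of 0.32 (edgeR adjusted p = 0.673). Its sum with Gm28437 rose by 0.52 (SE 0.06) in aEpiLC and by 0.59 (SE 0.08) in pEpiLC (edgeR adjusted p = 0.00154). Across EpiLC replicates the coefficient of variation of the mt-Co3 row was 60.6%, and that of the sum 6.98%, with 30.9% and 1.92% for mt-Atp6 and 43.1% and 1.54% for mt-Nd4l. mt-Atp6, the proton-channel subunit of the ATP synthase, was at 115, 81.9 and 154 CPM in EpiLC, 52.0, 164 and 183 CPM in aEpiLC and 168, 175 and 235 CPM in pEpiLC. Its row passed in pEpiLC (log2 fold change 0.71, SE 0.22) and not in aEpiLC (0.17, SE 0.33). Without aEpiLC replicate 1 the aEpiLC value was 0.56 and passed (edgeR adjusted p = 0.0219), and the pEpiLC call was lost without pEpiLC replicate 3 or EpiLC replicate 1 or 2. Its sum with Gm10925 was higher by 0.24 (SE 0.05) in aEpiLC and by 0.30 (SE 0.05) in pEpiLC. mt-Co1 was at 7825, 8527 and 7747 CPM in EpiLC, 9360, 9357 and 9258 CPM in aEpiLC and 10164, 9700 and 10468 CPM in pEpiLC, with row changes of 0.20 and 0.33 and summed changes of 0.19 and 0.32 on the log2 scale. The aEpiLC call of the row was lost without EpiLC replicate 1 or 3. mt-Nd4 was at 1441, 1486 and 1400 CPM in EpiLC, 2116, 2069 and 2069 CPM in aEpiLC and 2246, 2099 and 2415 CPM in pEpiLC, higher by 0.52 and 0.64. The small complex I subunit genes mt-Nd3 and mt-Nd4l were at 41.4 to 80.4 and 13.8 to 29.1 CPM in the EpiLC rows, 79.4 to 90.7 and 29.7 to 36.2 CPM in aEpiLC and 87.3 to 95.6 and 33.1 to 42.5 CPM in pEpiLC. The rows rose by 0.59 and 0.78 on the log2 scale in aEpiLC and by 0.70 and 0.92 in pEpiLC, and both pEpiLC calls were lost without pEpiLC replicate 3 or EpiLC replicate 1 or 3. The mt-Nd3 row was also lost in aEpiLC without EpiLC replicate 1 or 3 and in pEpiLC without pEpiLC replicate 2. Summed with their copies they were higher by 0.65 and 0.42 in aEpiLC and by 0.68 and 0.63 in pEpiLC.

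With rows and copies summed, 12 of 13 genes were higher in aEpiLC, with 0 lower and a median log2 fold change of 0.52, and 13 of 13 in pEpiLC, with a median of 0.63. mt-Atp8, which has no copy row, was the 1 gene not called in aEpiLC. Between pEpiLC and aEpiLC 0 of 13 sums passed in either direction, and their log2 differences ran from -0.02 to 0.19.

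**Figure D2:**
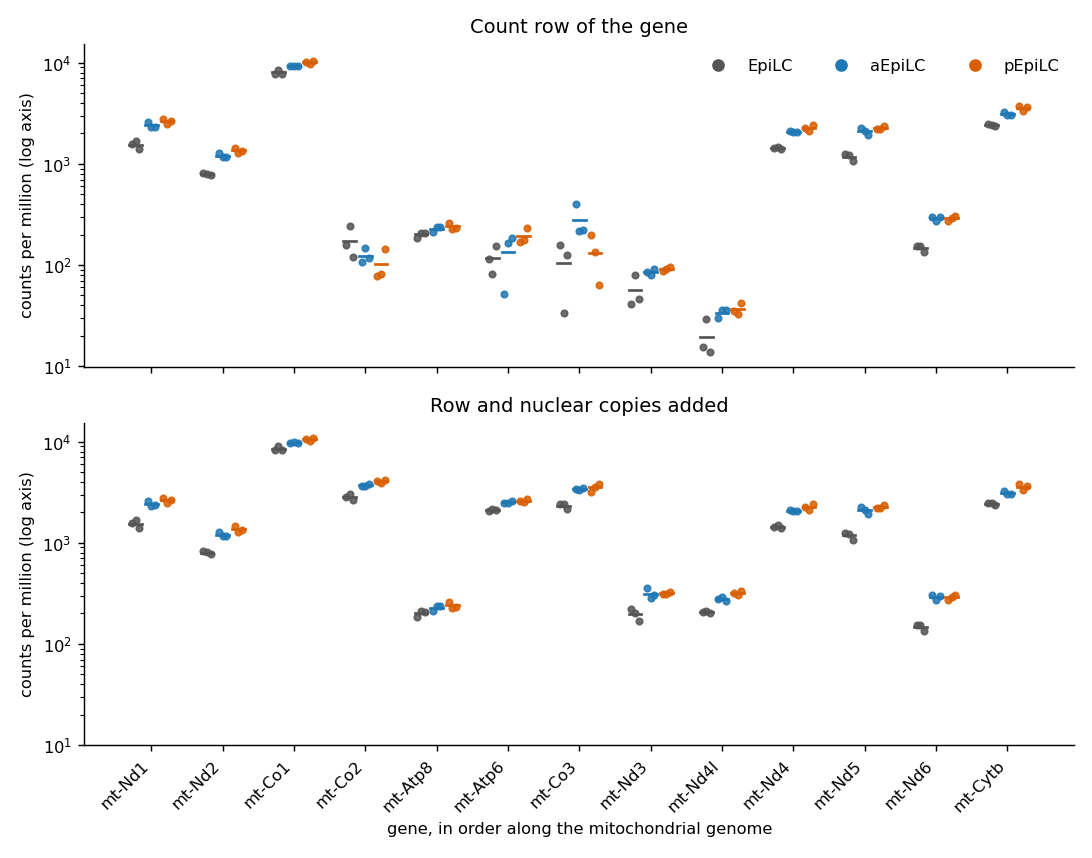
CPM of the 13 mitochondrially encoded genes in each library (log axis, points) with group means (bars), as the gene's own row (top) and with its nuclear copies added (bottom), in order along the mitochondrial genome. The rows of mt-Co2, mt-Atp6, mt-Co3, mt-Nd3 and mt-Nd4l lie lower than their sums and scatter more in EpiLC (in aEpiLC the mt-Nd3 sum scatters more than the row), and in the lower panel all EpiLC libraries lie below all libraries of the other groups for each of the 13 genes, least clearly for mt-Atp8 (up to 209.7 CPM in EpiLC and from 210.2 CPM in aEpiLC).

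With the copies added, the 7 complex I genes rose by 0.42 to 0.97 on the log2 scale in aEpiLC (median 0.63) and by 0.63 to 0.97 in pEpiLC (median 0.76). The 6 genes of complexes III, IV and V ran from 0.17 to 0.52 (median 0.29) and from 0.26 to 0.59 (median 0.42). These ranges are a description, and genes cut from shared precursors are not independent. The mitochondrial ribosomal RNAs, which are no members, were also higher in aEpiLC: mt-Rnr1 by 1.03 (SE 0.11) and mt-Rnr2 by 0.90 (SE 0.12) on the log2 scale. In pEpiLC mt-Rnr2 was higher by 0.90 (SE 0.09), and mt-Rnr1 had a log2 fold change of 0.65 (edgeR adjusted p = 0.0679), with pEpiLC replicate 1 at 97.2 CPM and the other two at 176 and 194 CPM. Without that library it was 0.90 and passed (edgeR adjusted p = 1.03e-05). The 2 rRNA rows together held on average only 0.0272%, 0.0546% and 0.0487% of counts in EpiLC, aEpiLC and pEpiLC. The 13 mitochondrially encoded rows held 1.60%, 2.17% and 2.33%. The part of RNA selection before sequencing in these low rRNA values was not tested.

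**Figure D3:**
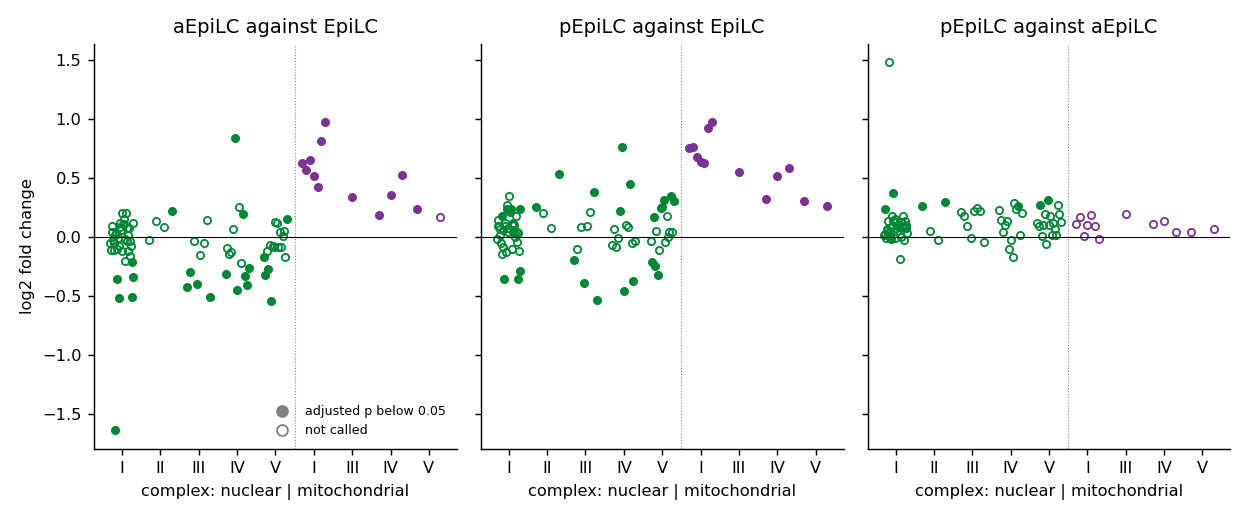
Log2 fold change of each tested member in the 3 comparisons, by complex, for nuclear genes (green) and mitochondrially encoded genes with their copies added (purple). Filled points passed adjusted p below 0.05. Every mitochondrially encoded point lies above 0 in the comparisons with EpiLC, where nuclear points lie on both sides.

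Of the 85 nuclear members, 80 passed the filter on low counts in each comparison. In aEpiLC 4 of the 80 were higher and 19 lower than in EpiLC, beside 24% and 22.6% of all genes, with a median log2 fold change of -0.06 that ran from -0.13 without aEpiLC replicate 3 to -0.01 without aEpiLC replicate 1. Scaling by library totals alone gave 11 higher and 18 lower and moved that median to -0.01. DESeq2 called 3 and 22. The shares of all genes under library totals and DESeq2 were not counted, so these member counts have no background beside them. In pEpiLC 16 were higher and 11 lower, beside 22.8% and 21.4% of all genes, with a median of 0.06 that ran from 0.04 without pEpiLC replicate 3 to 0.13 without pEpiLC replicate 1. The count of 16 rose to 29 without pEpiLC replicate 1 (36.2%, beside 26.6% of all genes in that fit). It was 10 without pEpiLC replicate 3 (12.5%, beside 19.5%) and 9 without EpiLC replicate 1 or 3 (11.2%, beside 16.2% and 14.9%), so that the share of nuclear members higher lay above that of all genes without pEpiLC replicate 1 and below it in the fit of all 6 libraries. The count of 11 lower fell to 6 without EpiLC replicate 2 (7.5%, beside 14.2%) and to 7 without EpiLC replicate 3 (8.75%, beside 14%). In aEpiLC the 4 higher became 2 without aEpiLC replicate 3 or EpiLC replicate 2 (2.5%, beside 22.9% and 19.8%). The EpiLC libraries are shared by both comparisons. Past 2-fold, 1 nuclear member was called in aEpiLC, Ndufa4l2, and 0 in the other comparisons.

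Complex I had 0 nuclear members higher and 6 lower of 38 in aEpiLC, and 4 higher and 3 lower in pEpiLC. Over all genes 24% were higher and 22.6% lower in aEpiLC and 22.8% and 21.4% in pEpiLC, so that the shares for complex I, 0% and 15.8% in aEpiLC and 10.5% and 7.89% in pEpiLC, were below those of all genes each way. For the share higher in pEpiLC this rested on pEpiLC replicate 1: without it 13 were higher, 34.2% beside 26.6% of all genes, and 4 lower, 10.5% beside 26%. Without EpiLC replicate 1 or 3 there were 0 higher, without pEpiLC replicate 3 there was 1 and without pEpiLC replicate 2 there were 2, and the 3 lower became 2 or 1 without pEpiLC replicate 3 or any 1 of the EpiLC libraries. Ndufb10, an accessory subunit of the membrane arm, was at 66.0, 67.5 and 64.3 CPM in EpiLC, 46.4, 45.7 and 47.8 CPM in aEpiLC and 58.5, 61.6 and 62.0 CPM in pEpiLC. The aEpiLC libraries lay below both other groups, by -0.51 (SE 0.06, edgeR adjusted p = 2e-05) against EpiLC, and pEpiLC was higher than aEpiLC by 0.37 (SE 0.07, edgeR adjusted p = 0.0114). The call between the later states was lost without aEpiLC replicate 1 or 2. Ndufs8, which carries iron-sulphur clusters of the electron path, was at 64.2 to 70.7 CPM in EpiLC, 44.1 to 50.9 in aEpiLC and 45.4 to 58.1 in pEpiLC, with log2 fold changes of -0.51 and -0.36. The call for pEpiLC was lost without EpiLC replicate 2 or 3. The accessory subunit Ndufa7 fell by 0.36 and 0.35 on the log2 scale. Ndufv3 was lower in both later states, and Ndufv1, the NADH-binding subunit, in aEpiLC. Ndufv2, Ndufb7, Ndufb11 and Ndufa4 were higher in pEpiLC, by 0.17 to 0.24. Leaving out 1 of the 6 libraries lost the Ndufa4, Ndufb7 and Ndufb11 calls in 4 of the 6 fits each and the Ndufv2 call in 3, and the pEpiLC call of Ndufv3 was lost without pEpiLC replicate 3 or any 1 of the EpiLC libraries. Ndufa10 was higher in pEpiLC than in aEpiLC, by 0.24 (SE 0.06, edgeR adjusted p = 0.0414), a call lost in 8 alternatives.

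Ndufa4l2, a paralogue of Ndufa4 known as a target of the hypoxia factor HIF-1, had the largest log2 fold change of the nuclear members in aEpiLC, -1.64 (SE 0.39, edgeR adjusted p = 0.00342), at a low level. It was at 1.80, 5.03 and 6.22 CPM in EpiLC, 1.03, 1.90 and 1.29 CPM in aEpiLC and 8.86, 2.28 and 0.745 CPM in pEpiLC. The EpiLC and aEpiLC libraries overlapped, the only called nuclear member of which this was true, and the call was lost in 1 fit of all 9 libraries. In pEpiLC its log2 fold change was -0.14, and without pEpiLC replicate 1, its highest library, it was -1.52 and passed (edgeR adjusted p = 0.0127).

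Complex II, which links the citric acid cycle to the chain, had 1 of 4 members higher and 0 lower in aEpiLC, and 2 and 0 in pEpiLC, beside 24% and 22.6% and 22.8% and 21.4% of all genes. With 4 members a count of 0 does not stand apart from these shares. Without aEpiLC replicate 1 there were 2 higher in aEpiLC, and 3 in pEpiLC without pEpiLC replicate 1. Sdhd, a membrane anchor, was at 82.3, 78.7 and 81.5 CPM in EpiLC, 96.9, 90.9 and 97.7 CPM in aEpiLC and 120, 116 and 116 CPM in pEpiLC. The 3 groups did not overlap, and the log2 fold changes were 0.22 (SE 0.06, edgeR adjusted p = 0.00906) in aEpiLC and 0.53 (SE 0.05, edgeR adjusted p = 0.000403) in pEpiLC. pEpiLC was also higher than aEpiLC, by 0.29 (SE 0.06, edgeR adjusted p = 0.0197). Sdha, the flavoprotein that oxidises succinate, was at 236, 242 and 239 CPM in EpiLC, 232, 240 and 240 CPM in aEpiLC and 280, 289 and 290 CPM in pEpiLC, higher in pEpiLC by 0.26 against each of the other states (SE 0.05 each). Between the later states the Sdhd and Sdha calls were each lost in 5 of the 6 fits without a single library. Sdhb, the iron-sulphur subunit, was at 69.4 to 74.7, 72.5 to 85.2 and 72.0 to 89.1 CPM, and Sdhc, the other anchor, with group means of 57.5, 61.6 and 60.9 CPM, and neither passed in any comparison. Sdhb passed in pEpiLC without pEpiLC replicate 1 (0.29, edgeR adjusted p = 0.00111) and in aEpiLC without aEpiLC replicate 1 (0.20, edgeR adjusted p = 0.0333). In aEpiLC it also passed with library totals alone (0.19, edgeR adjusted p = 0.0373).

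In complex III, 4 of 8 nuclear members were lower in aEpiLC with 0 higher, and 3 were lower and 1 higher in pEpiLC. The shares lower were 50% and 37.5%, beside 22.6% and 21.4% of all genes, and the shares higher 0% and 12.5%, beside 24% and 22.8%. In pEpiLC 3 were higher without pEpiLC replicate 1 (37.5%, beside 26.6%). Uqcrc1, a core protein of the matrix side, was at 295, 303 and 299 CPM in EpiLC, 222, 232 and 235 CPM in aEpiLC and 228, 233 and 226 CPM in pEpiLC. Both later states lay below EpiLC, by -0.40 and -0.39 (SE 0.05 each, edgeR adjusted p = 5.97e-05 and 0.000828), and overlapped each other. Uqcrq, a small subunit near cytochrome b, was at 134, 136 and 125 CPM in EpiLC, 86.0, 94.6 and 99.1 CPM in aEpiLC and 74.5, 102 and 97.5 CPM in pEpiLC, lower by 0.51 and 0.53 on the log2 scale. Uqcr10 fell by 0.43 in aEpiLC and 0.20 in pEpiLC, and Uqcr11 by 0.30 in aEpiLC. The pEpiLC call of Uqcr10 was lost without any 1 of the EpiLC libraries. Uqcrh, the hinge protein, was the member higher in pEpiLC, from 74.2 to 90.8 CPM in EpiLC to 98.7 to 111 CPM, a log2 fold change of 0.38 (SE 0.09).

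Complex IV had 5 of 13 tested nuclear members lower and 2 higher in aEpiLC, and 2 lower and 3 higher in pEpiLC. The shares lower were 38.5% and 15.4%, beside 22.6% and 21.4% of all genes, and the shares higher 15.4% and 23.1%, beside 24% and 22.8%, so that in pEpiLC both were near or below the share of all genes. Without aEpiLC replicate 3 there were 9 lower in aEpiLC (69.2%, beside 22.1%) and 1 higher. There was also 1 higher without aEpiLC replicate 1 or EpiLC replicate 1 or 2 (7.69%, beside 21.8%, 20.8% and 19.8%). In pEpiLC 1 was lower without EpiLC replicate 2 or 3 (7.69%, beside 14.2% and 14%). Cox6b2, the testis isoform of the subunit that faces cytochrome c, was at 12.7, 14.3 and 11.1 CPM in EpiLC, 23.1, 21.3 and 24.5 CPM in aEpiLC and 22.7, 20.1 and 21.9 CPM in pEpiLC. It had the largest rise of any nuclear member against EpiLC, 0.84 (SE 0.11, edgeR adjusted p = 5.37e-05) and 0.76 (SE 0.13, edgeR adjusted p = 0.00279) on the log2 scale. Its ubiquitous partner isoform Cox6b1 was at 86.6 to 93.1 CPM in EpiLC, 89.0 to 104 CPM in aEpiLC and 97.1 to 114 CPM in pEpiLC. The call of Cox6b1 in pEpiLC (log2 fold change 0.22, edgeR adjusted p = 0.0359) was lost in 9 alternatives. Cox7a2l, known as a factor that joins complexes III and IV in supercomplexes, was at 62.6, 66.9 and 70.0 CPM in EpiLC, 80.7, 71.3 and 78.5 CPM in aEpiLC and 89.5, 90.8 and 92.8 CPM in pEpiLC, higher by 0.19 (SE 0.07) and 0.45 (SE 0.06). The aEpiLC call was lost under 7 alternatives, DESeq2 among them (edgeR adjusted p = 0.039, DESeq2 adjusted p = 0.0559). Cox6c was at 161, 154 and 153 CPM in EpiLC, 114, 109 and 122 CPM in aEpiLC and 97.2, 119 and 125 CPM in pEpiLC, lower by 0.45 and 0.46. Cox7c was lower in both states, by 0.41 and 0.37, and the pEpiLC call was lost without EpiLC replicate 2 or 3. Cox4i1, the common form of the regulatory subunit 4, was lower in aEpiLC, by 0.32 (SE 0.06), with 315, 328 and 323 CPM in EpiLC against 241, 259 and 283 CPM, and was at 305, 311 and 309 CPM in pEpiLC. Cox7b and Cox8a followed the same order, lower in aEpiLC by 0.33 and 0.26, with log2 fold changes of -0.05 and -0.04 in pEpiLC that did not pass.

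Cox4i1, Cox6c, Atp5j and Ndufb11 are the called members among 11 that share 5% or more of their 50-base words with a row on the opposite strand, and reads of such stretches cannot be told apart without strand information. Atp5a1 shares 2.5% and Atp5d 1.2% of their words with other genes, both strands counted. Counting other genes on either strand, the called nuclear members that share 10% or more of their words were Cox7c (22.1%), Atp5h (19.9%), Ndufb11 (17.5%), Cox7a2l (13.8%) and Atp5g1 (11.1%), and their counts depend on how shared reads were divided.

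The other isoforms were low or did not pass. Cox6a1 was at 108 to 137 CPM and Cox7a2 at 24.8 to 35.3 CPM in all libraries, with no call in any comparison. Without aEpiLC replicate 3 both passed as lower in aEpiLC than in EpiLC, by 0.21 and 0.30, and without pEpiLC replicate 1 Cox7a2 was higher in pEpiLC than in aEpiLC, by 0.35. Cox7a1, the muscle form, was at 0.740 to 1.66 CPM and did not pass. The 5 nuclear members that were not tested were Cox4i2 (0.0479 to 0.452 CPM), Cox6a2, Cox6c2, Cox7b2 and Cox8c (up to 0.0931 CPM). Cox6a2, the muscle form of subunit 6a, was at 0.324, 0.512 and 0.348 CPM in EpiLC, at 0 in the 3 aEpiLC libraries and at 0.0466 CPM or less in pEpiLC. Cox7b2 was at 0.416, 0.559 and 0.435 CPM in EpiLC and at 0.184 CPM or less in the other 6 libraries. A count of 0 allows a level of up to 0.131 to 0.144 CPM (3 counts of a library, counting error only). Cox6c2 shares 52.7% of its 50-base words with other genes, and Ndufb4c all of them, so their counts depend on how shared reads were divided.

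**Figure D4:**
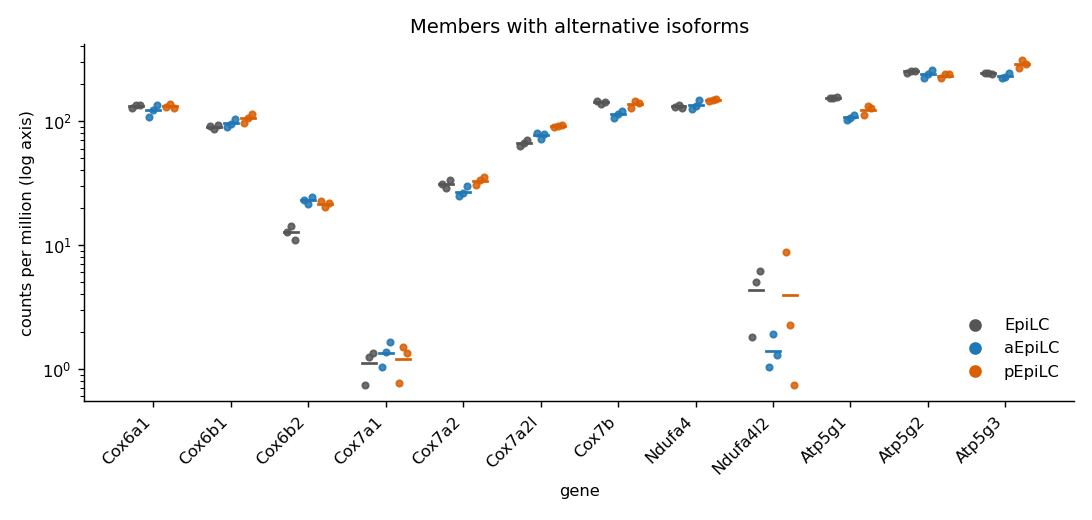
CPM per library (log axis, points) and group means (bars) of members with alternative isoforms. Cox6b2 rises from 11.1 to 14.3 CPM in EpiLC to 20.1 to 24.5 CPM in the other groups, and Ndufa4l2 ranges from 0.745 to 8.86 CPM among the pEpiLC replicates.

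The ATP synthase had 4 of 17 nuclear members lower and 1 higher in aEpiLC, and 3 lower and 6 higher in pEpiLC. The shares lower, 23.5% and 17.6%, were near or below the 22.6% and 21.4% of all genes, and the shares higher were 5.88% and 35.3%, beside 24% and 22.8%. The 6 higher in pEpiLC became 3 without EpiLC replicate 2 (17.6%, beside 15.3%), and were 7 without pEpiLC replicate 1 (41.2%, beside 26.6%). The 3 genes Atp5g1, Atp5g2 and Atp5g3 encode the same mature subunit c of the rotor ring and did not move together. Atp5g1 was at 154, 152 and 157 CPM in EpiLC, 103, 107 and 113 CPM in aEpiLC and 111, 131 and 129 CPM in pEpiLC, lower by 0.54 (SE 0.06, edgeR adjusted p = 8.38e-06) and 0.33 (SE 0.07, edgeR adjusted p = 0.00764) on the log2 scale. Atp5g3 was at 243, 244 and 240 CPM in EpiLC, 223, 226 and 244 CPM in aEpiLC and 269, 310 and 287 CPM in pEpiLC, higher in pEpiLC by 0.25 (SE 0.06) against EpiLC and by 0.31 (SE 0.07) against aEpiLC. Its call against aEpiLC was lost in 5 of the 6 fits without a single library. Atp5g2 was at 221 to 261 CPM in all libraries and did not pass, and 38.3% of its 50-base words occur in other genes. Atp5b, the catalytic subunit, was at 1969, 2002 and 1975 CPM in EpiLC, 1487, 1646 and 1679 CPM in aEpiLC and 1644, 1763 and 1755 CPM in pEpiLC, lower by 0.32 (SE 0.06) and 0.21 (SE 0.05). Its partner Atp5a1 was lower in aEpiLC by 0.17 (SE 0.05), a call lost without EpiLC replicate 2 or 3 and with library totals alone, and had a log2 fold change of -0.03 in pEpiLC, and the difference between the later states did not pass. Atp5d of the central stalk fell by 0.27 and 0.24. Atp5pb, Atp5j and Atp5h of the peripheral stalk were higher in pEpiLC, by 0.30, 0.31 and 0.25, as were Atp5mpl, by 0.35, and the central shaft gene Atp5c1, by 0.17. In pEpiLC the Atp5d and Atp5mpl calls were lost without EpiLC replicate 2, the Atp5g3 call without EpiLC replicate 3, the Atp5h call in 4 of the 6 fits without a single library and the Atp5c1 call in 5, and also under DESeq2. Atp5pb was also called in aEpiLC (0.16, edgeR adjusted p = 0.0359), and this call was lost in 7 alternatives.

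**Figure D5:**
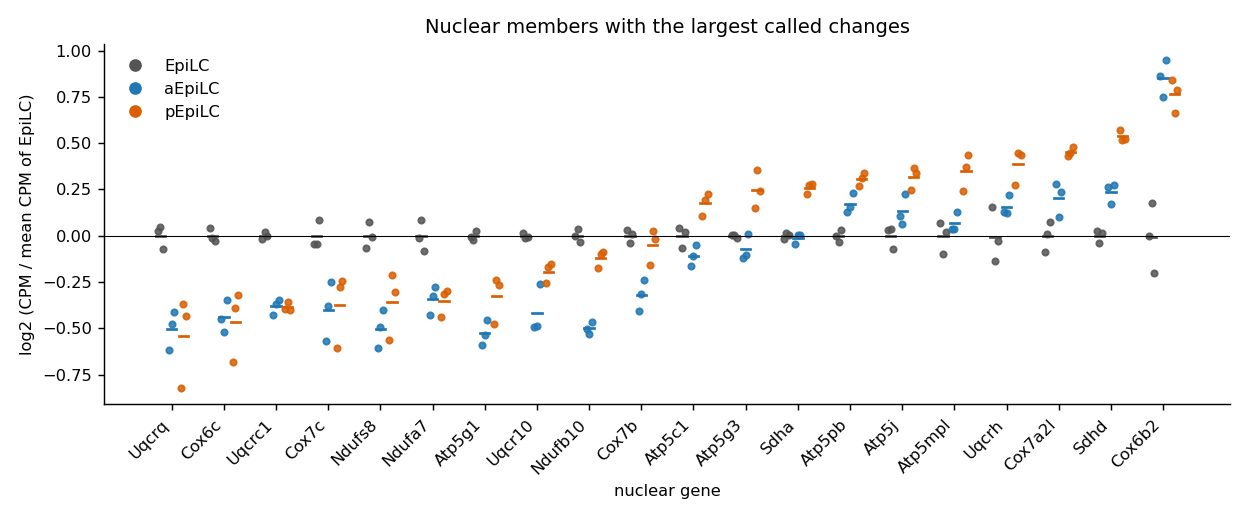
Log2 ratio of the CPM of each library (points) to the EpiLC mean, with group means (bars), for the nuclear members with the largest called changes, ordered by the change in pEpiLC. Uqcrq to Ndufb10 lie below 0 in aEpiLC and pEpiLC, and Atp5pb to Cox6b2 lie above 0 in both.

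Between the 2 later states 7 of 80 nuclear members were higher in pEpiLC and 0 lower, beside 6.28% and 9.3% of all genes. Ndufb10, Atp5g3, Sdhd, Atp5c1, Sdha, Cox7b and Ndufa10 were higher, by 0.37, 0.31, 0.29, 0.27, 0.26, 0.26 and 0.24 on the log2 scale. The call rate depended on single libraries: 16 were higher without pEpiLC replicate 1 (20%, beside 8.81% of all genes in that fit), 1 without pEpiLC replicate 2 or 3, or aEpiLC replicate 3 (beside 4.64%, 4.26% and 2.19%), and 0 without aEpiLC replicate 1 or 2 (beside 2.55% and 1.79%). The 16 comprised 3 of complex I, 2 of complex II, 3 of complex III, 4 of complex IV and 4 of complex V. Leaving out 1 library other than pEpiLC replicate 1 lost every one of these calls but that of Ndufb10, which was lost without aEpiLC replicate 1 or 2. The median log2 difference was 0.10, against 0.01 over all genes, and ran from 0.05 without aEpiLC replicate 1 to 0.15 without aEpiLC replicate 3. DESeq2 called 10 higher and 0 lower, and at an unadjusted p below 0.05 there were 18 higher and 0 lower. The shares of all genes under these 2 rules were not counted, so whether these counts stand apart from all genes was not tested.

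The nuclear members most like the sum of the 13 mitochondrial rows over the 9 libraries were Cox6b2, Sdhd, Atp5pb, Cox7a2l and Ndufb4c, with Pearson correlations of log2 CPM from 0.84 to 0.94, and the least like were Uqcrc1, Cox6c, Uqcrq, Ndufa7 and Atp5d, from -0.96 to -0.84. The 80 ranked members had a median of 0.09. The 9 libraries form 3 groups, so that this ranking restates the differences between them and is a description. The promoters of the 3 of these genes at the ends of the ranking are shown, from RefSeq (GRCm38.p6), as 250 bases before to 50 after the start, with capitals for motifs found on either strand. The motifs searched were CGCANGCG (bound by NRF1), CCGGAAG (by GABPA and other ETS factors), AAGATGGCG (by YY1) and TCAAGGTCA (by oestrogen-related receptors), which occur in 9.22%, 9.93%, 1.64% and 0.466% of 27025 genes with a promoter. Cox6b2 (chr7:4753045-4753344, minus strand) held none of these letters, Sdhd (chr9:50603800-50604099, minus strand) held the NRF1, ETS and oestrogen-related receptor motifs, and Uqcrc1 (chr9:108936398-108936697, plus strand) held the NRF1 motif at 2 places.
Cox6b2: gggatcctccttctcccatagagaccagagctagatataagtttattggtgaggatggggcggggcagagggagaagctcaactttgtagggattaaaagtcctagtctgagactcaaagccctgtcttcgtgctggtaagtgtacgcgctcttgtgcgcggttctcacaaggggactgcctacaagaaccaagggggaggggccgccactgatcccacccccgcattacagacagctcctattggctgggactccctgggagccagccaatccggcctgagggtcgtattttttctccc
Sdhd: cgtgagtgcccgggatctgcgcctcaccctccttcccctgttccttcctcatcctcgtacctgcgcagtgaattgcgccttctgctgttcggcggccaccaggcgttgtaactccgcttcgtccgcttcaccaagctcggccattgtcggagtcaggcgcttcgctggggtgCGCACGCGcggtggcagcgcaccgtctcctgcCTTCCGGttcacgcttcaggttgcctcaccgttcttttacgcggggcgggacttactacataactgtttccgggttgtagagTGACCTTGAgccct
Uqcrc1: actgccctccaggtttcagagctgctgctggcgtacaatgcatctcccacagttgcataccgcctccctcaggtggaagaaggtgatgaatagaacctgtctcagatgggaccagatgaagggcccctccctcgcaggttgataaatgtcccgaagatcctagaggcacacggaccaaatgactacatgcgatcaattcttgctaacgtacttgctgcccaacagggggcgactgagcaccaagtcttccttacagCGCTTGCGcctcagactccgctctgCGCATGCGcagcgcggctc
A promoter was matched for 67 of the 85 nuclear members, 78.8%, too few to give a share of members, so that a comparison of motif shares is void.

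Genes that build, express or supply the chain were taken as 4 further lists. Of 46 tested assembly factors, 5 were higher and 10 lower in aEpiLC against EpiLC (24% and 22.6% of all genes), 9 and 3 in pEpiLC (22.8% and 21.4%), and 4 and 0 in pEpiLC against aEpiLC (6.28% and 9.3%). Without pEpiLC replicate 1 there were 6 lower in pEpiLC against EpiLC (13%, beside 26%). Leaving out each library in turn gave 2 to 4 higher in aEpiLC and 5 (without aEpiLC replicate 2) to 12 (without aEpiLC replicate 3) lower, 4 (without EpiLC replicate 3) to 12 (without pEpiLC replicate 1) higher in pEpiLC, and 1 to 4 higher between the later states, with 1 without pEpiLC replicate 3 or any 1 of the aEpiLC libraries. Ndufaf4, a complex I assembly factor, was at 32.1, 32.3 and 33.4 CPM in EpiLC, 37.5, 31.4 and 38.2 CPM in aEpiLC and 71.3, 71.7 and 74.0 CPM in pEpiLC, higher in pEpiLC by 1.14 (SE 0.06, edgeR adjusted p = 3.91e-05) and 1.01 (SE 0.09, edgeR adjusted p = 0.000647) on the log2 scale. Ecsit, which acts at the same complex, was at 47.6 to 55.4 CPM in EpiLC, 29.8 to 34.1 in aEpiLC and 24.9 to 30.7 in pEpiLC, lower by 0.68 and 0.84. Cox16 rose by 0.56 and Sdhaf3 fell by 0.55 in aEpiLC, Sdhaf4 rose by 0.60 in pEpiLC, and Ndufaf5 and Atpaf2 were higher in pEpiLC than in aEpiLC, by 0.62 and 0.44. The calls of Sdhaf3, Sdhaf4, Ndufaf5 and Atpaf2 were each lost in 3 or more of the 6 fits without a single library.

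Of 38 tested genes of mitochondrial transcription, RNA processing and translation, 2 were higher and 11 lower in aEpiLC, 3 and 7 in pEpiLC, and 2 and 0 between the later states. The shares over all genes were 24% and 22.6%, 22.8% and 21.4%, and 6.28% and 9.3% in the same order, so that in these fits only the count lower in aEpiLC exceeded the share of all genes. Without pEpiLC replicate 1 there were 8 higher in pEpiLC against EpiLC (21.1%, beside 26.6%) and 4 between the later states (10.5%, beside 8.81%). The 11 lower in aEpiLC became 7 without aEpiLC replicate 2 (18.4%, beside 19.3%), and the 7 lower in pEpiLC became 4 without EpiLC replicate 3 (10.5%, beside 14%). Ssbp1, which coats single-stranded mitochondrial DNA, was at 129, 139 and 143 CPM in EpiLC, 92.9, 88.1 and 99.9 CPM in aEpiLC and 97.0, 104 and 96.2 CPM in pEpiLC, lower by 0.56 (SE 0.07) in aEpiLC. In aEpiLC Mterf2 rose by 0.55 and the translation factor Gfm2 fell by 0.48. In pEpiLC Mterf4 fell by 0.62 and Mtrf1l rose by 0.62, and Pnpt1, a mitochondrial RNA exonuclease, was higher by 0.58 (SE 0.07) against EpiLC and by 0.52 (SE 0.07) against aEpiLC. The elongation factor Tufm was the other gene higher in pEpiLC than in aEpiLC, by 0.28. The Tufm call was lost without pEpiLC replicate 2 or aEpiLC replicate 1 or 2, and the Mtrf1l call without EpiLC replicate 2 or 3.

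Of 14 tested regulators of respiration, 5 were higher and 6 lower in aEpiLC, 3 and 1 in pEpiLC, and 3 and 1 between the later states, beside the same shares of all genes (24% and 22.6%, 22.8% and 21.4%, 6.28% and 9.3%). In pEpiLC neither count exceeded the share of all genes. Without pEpiLC replicate 1 there were 4 higher (28.6%, beside 26.6%) and 2 lower (14.3%, beside 26%). The 3 higher between the later states became 1 without any 1 of the aEpiLC libraries. Myc was at 52.5, 49.9 and 55.8 CPM in EpiLC, 28.4, 25.4 and 21.1 CPM in aEpiLC and 52.1, 36.1 and 30.9 CPM in pEpiLC, lower in aEpiLC by 1.10 (SE 0.10). Esrrb, an oestrogen-related receptor and also a naive pluripotency gene, was at 3.61, 4.75 and 3.74 CPM in EpiLC, 1.92, 1.67 and 2.12 CPM in aEpiLC and 5.70, 5.04 and 5.77 CPM in pEpiLC. Its log2 differences were -1.10 for aEpiLC against EpiLC and 1.52 for pEpiLC against aEpiLC. The coactivator Ppargc1b was 0.92 lower in aEpiLC than in EpiLC on the log2 scale and 0.92 higher in pEpiLC than in aEpiLC, and Esrra was 0.44 higher in pEpiLC than in aEpiLC. Creb1 rose by 0.50 and Pprc1 fell by 0.33 in pEpiLC against EpiLC, and Yy1 rose by 0.30, with an edgeR adjusted p of 0.04995, at the limit. The calls of Yy1 in pEpiLC and of Ppargc1b and Esrra between the later states were each lost in 4 or more of the 6 fits without a single library.

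Of 27 electron carriers and other respiration genes, 4 were higher and 11 lower in aEpiLC, and 7 and 6 in pEpiLC. Between the later states 4 and 0 of 26 passed. Beside the 24% and 22.6%, 22.8% and 21.4%, and 6.28% and 9.3% of all genes, both counts in pEpiLC against EpiLC were near the share of all genes. Without pEpiLC replicate 1 they stayed at 7 and 6, and 6 of 26 were higher between the later states (23.1%, beside 8.81%). The 11 lower in aEpiLC became 7 without aEpiLC replicate 2 or EpiLC replicate 2 (25.9%, beside 19.3% and 18.2%), and the 4 higher between the later states became 0 without aEpiLC replicate 2. The 4 higher in aEpiLC against EpiLC became 2 without EpiLC replicate 1 (7.41%, beside 20.8%). Cyct, testis cytochrome c, was at 1.16, 1.07 and 1.78 CPM in EpiLC and at 0.131 to 0.317 CPM in the other 6 libraries, lower by 2.35 and 2.83. Chchd4, an import factor of the intermembrane space, fell by 0.73 (SE 0.07) in aEpiLC, from 67.0 to 75.0 CPM to 40.1 to 44.8 CPM. Etfdh, which feeds electrons from fatty acids to ubiquinone, rose by 0.63 in aEpiLC. Among genes of ubiquinone synthesis, Coq2 rose by 0.63 and Coq8a fell by 0.71 in pEpiLC against EpiLC, and Coq9 was 0.46 higher in pEpiLC than in aEpiLC. Slc25a5 and Slc25a3, carriers of adenine nucleotides and phosphate, were higher in pEpiLC than in aEpiLC by 0.33 and 0.30. The Coq9 call was lost in 5 of the 6 fits without a single library, the Coq8a call without pEpiLC replicate 3 or EpiLC replicate 2 or 3, the Slc25a5 call without aEpiLC replicate 2 and the Slc25a3 call without aEpiLC replicate 2 or 3.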

How the data were processed

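Expected counts per gene symbol for 9 libraries were deposited by the authors; per the labels' processing notes reads were aligned with STAR 2.7.9a and quantified with RSEM 1.3.1, which divides reads shared by similar transcripts. Strandedness and the annotation release are not given in the sources used here. Counts were rounded. The members and lists were chosen with earlier results of these data known. Each pair of groups (6 libraries) was fitted in edgeR 4.0.16 (R 4.3.3) with filterByExpr, TMM factors and the quasi-likelihood test, and p-values were adjusted by Benjamini-Hochberg over all genes tested. CPM are scaled by TMM, and shares by library totals. DESeq2 1.42.0 was an alternative. The procedure was also run on simulated counts with the same dispersion for all genes and no library that stands apart. That run does not resemble the spread of the pEpiLC replicates. Genes named were all mitochondrially encoded members, isoform families, Sdh genes, the 6 nuclear members with the largest called change each way at 5 CPM or more, the 2 highest per kb in each complex, the 5 most and least like the mitochondrial sum, and the 3 largest called changes of each list. Others were named after their values were seen. Shared 50-base words came from GENCODE vM21 (GRCm38), which matched 97.3% of symbols and 95 of 98 members to 1 gene. No sequence is given for proteins.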

Additional observations from a re-analysis of the deposited data

How the results depend on the processing

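The counts and medians of the members are given here under the settings that moved them, and the cause was not tested. Apart from the 2-fold limit, the shares of all genes under the settings of this paragraph were not counted. The member counts therefore have no background beside them. With library totals alone 11 nuclear members were higher and 0 mitochondrially encoded rows lower in aEpiLC against EpiLC, and the mitochondrial median was 0.63. The count of lower mitochondrial rows there was also 0 under DESeq2, in 1 fit of all 9 libraries and with the copies added, which set the median to 0.52 and turned mt-Co2 to 0.36 in aEpiLC and 0.52 in pEpiLC. In pEpiLC 1 mitochondrial row, mt-Co2, was lower under the likelihood ratio test and in 1 fit of all 9 libraries. Between pEpiLC and aEpiLC 1 row, mt-Co3, was lower under the likelihood ratio test, and 12 nuclear members were higher in 1 fit of all 9 libraries. A 2-fold limit left in aEpiLC 0 nuclear members higher and 1 lower and 1 mitochondrial row higher and 0 lower, and 0 in each of the other counts. With a replicate block 2 nuclear members were higher in aEpiLC, and 1 mitochondrial row was higher and 1 lower in pEpiLC against aEpiLC, and mt-Atp8 passed in aEpiLC (edgeR adjusted p = 0.0369) and not in pEpiLC (edgeR adjusted p = 0.0725), while the other counts stayed within 1.5 times. Replicate numbers did not pair the samples (same-numbered deviations correlated at -0.06 to 0.18), though every pEpiLC and aEpiLC library correlated best with its own number between those groups, a hint from the data and not the design. With nuclear members as denominator, the ratio of mitochondrial counts was 1.46 for aEpiLC over EpiLC and 0.994 for pEpiLC over aEpiLC.

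Leaving out single libraries in aEpiLC against EpiLC gave 2 to 5 nuclear members higher, 18 to 28 lower, a nuclear median of -0.13 to -0.01, 0 to 1 mitochondrial rows lower and a mitochondrial median of 0.49 to 0.59. In pEpiLC against EpiLC it gave 9 to 29 nuclear members higher (29 without pEpiLC replicate 1), 6 to 12 lower, 7 to 11 mitochondrial rows higher, 0 to 1 lower, and medians of 0.0376 to 0.125 (nuclear) and 0.62 to 0.71 (mitochondrial). In pEpiLC against aEpiLC it gave 0 to 16 nuclear members higher, a nuclear median of 0.05 to 0.15 and 0 to 1 mitochondrial rows lower. Depth of 20560564 counts or more left 5 members too low to test.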
